A study of Mus musculus with 4 samples.

Results

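The 5 genes described here, Krt7, Krt8, Krt18, Krt19 and Krt42, encode keratins and were taken by symbol, as every probe set of the array annotated to exactly 1 of these symbols. This gave 8 probe sets among 45101, and 5 of the 18193 named genes. These 5 symbols were chosen by their scaled signals and the differences between these arrays, which were already known, so the differences are given as a description, without a test. Transcript levels had been measured in mouse embryonic stem (ES) cells on 4 Affymetrix arrays, 1 array per group. The groups were ES cells labelled constitutive Ring1B KO, their control labelled wild-type, ES cells labelled conditional Ring1A/B-dKO (double knockout, or double KO below) at day 4, and their own control, also labelled wild-type. The study's design text states that the double KO was induced with OHT, an oestrogen receptor ligand used to switch on Cre recombinase, because constitutive double KO cells could not be maintained. Whether the double KO control carried the conditional alleles or received OHT, and how many clones or cultures each array represents, is not given in the sources used here. Ring1A, encoded by Ring1, and Ring1B, encoded by Rnf2, are the catalytic RING-finger subunits of Polycomb repressive complex 1, which ubiquitylates histone H2A and keeps developmental genes silent in ES cells.

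Keratins are the intermediate filament proteins of epithelial cells. They assemble as obligate heteropolymers of 1 acidic type I chain and 1 basic type II chain, and an unpaired chain is degraded. Krt8 (type II) and Krt18 (type I) are the first pair made in the mouse embryo, in the trophectoderm, and remain the pair of simple, that is single-layered, epithelia. Krt7 (type II) and Krt19 (type I) are further keratins of simple epithelia and ducts, and of the trophoblast. Krt42 is a mouse type I keratin related to Krt17, and RefSeq lists K17n and ecat6 among its synonyms.

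In the GRCm38.p6 gene table Krt8 and Krt18 were adjacent protein-coding genes on chromosome 15, although they belong to different types. Krt7, between Krt80 and Krt87, was on the same chromosome, while Krt19, between Krt15 and Krt9, and Krt42, between Krt17 and Eif1, were on chromosome 11. The promoter windows of 4 of the genes were in the RefSeq table (build GRCm38.p6) and are printed because Krt8 and Krt18 lie side by side and had similar differences on the arrays while Krt42 took the opposite direction. Each window runs 5′ to 3′ on the gene's strand, from 250 bases before the annotated start to 50 after. Positions are counted from the annotated start, negative before it. Capitals mark TATAAA in the Krt8 and Krt42 windows and GGGCGG in the Krt7 window, on either strand. The windows are chr15:102004293-102004592 (minus strand) for Krt8, chr15:102027966-102028265 (plus strand) for Krt18, chr15:101412153-101412452 (plus strand) for Krt7 and chr11:100269902-100270201 (minus strand) for Krt42.
Krt8: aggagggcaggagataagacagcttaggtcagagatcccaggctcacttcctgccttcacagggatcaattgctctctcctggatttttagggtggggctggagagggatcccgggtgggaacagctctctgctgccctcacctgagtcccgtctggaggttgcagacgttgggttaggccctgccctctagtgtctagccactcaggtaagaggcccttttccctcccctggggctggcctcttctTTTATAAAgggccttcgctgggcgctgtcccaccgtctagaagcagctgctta
Krt18: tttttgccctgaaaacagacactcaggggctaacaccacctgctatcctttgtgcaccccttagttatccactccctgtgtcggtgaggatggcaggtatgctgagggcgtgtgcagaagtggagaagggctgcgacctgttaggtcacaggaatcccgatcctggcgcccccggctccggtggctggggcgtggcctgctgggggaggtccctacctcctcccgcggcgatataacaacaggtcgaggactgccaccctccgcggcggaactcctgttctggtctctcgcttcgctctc
Krt7: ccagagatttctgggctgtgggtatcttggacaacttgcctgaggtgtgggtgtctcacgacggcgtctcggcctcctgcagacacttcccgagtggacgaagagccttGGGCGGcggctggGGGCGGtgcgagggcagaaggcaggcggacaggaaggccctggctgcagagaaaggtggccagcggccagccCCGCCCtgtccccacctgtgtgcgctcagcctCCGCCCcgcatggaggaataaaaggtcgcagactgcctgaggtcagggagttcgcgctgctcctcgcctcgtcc
Krt42: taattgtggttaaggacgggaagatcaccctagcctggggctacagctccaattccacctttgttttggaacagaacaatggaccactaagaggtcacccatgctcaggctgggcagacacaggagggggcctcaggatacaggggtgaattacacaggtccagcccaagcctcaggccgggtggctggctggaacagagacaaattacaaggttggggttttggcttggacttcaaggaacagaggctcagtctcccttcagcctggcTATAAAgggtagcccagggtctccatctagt

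The windows of the neighbours Krt8 and Krt18 differed in their letters. TATAAA, the letters at the core of a TATA box, stood at position -1 of the Krt8 window, overlapping its own reverse complement. These exact letters were also at position 20 of the Krt42 window, and in neither the Krt18 nor the Krt7 window. TATAAA was present in 13.6% of the 32851 promoter windows searched. Whether it acts as a TATA box at these positions was not tested. GGGCGG, the letters bound by Sp1, occurred 4 times in the Krt7 window and in no other of the 4, against 35.7% of all windows. Neither TGACTCA, the letters bound by AP-1 (5.20% of all windows), nor CCGGAA, an Ets-type motif (14.9%), was in any of the 4 windows, and Krt18 held none of the 4 motifs searched. Only these exact letters were searched, so variants of a motif, other Ets-type sites among them, were not looked for and may be present. CpG dinucleotides numbered 17 in the Krt18 window and 21 in the Krt7 window, against 6 for Krt8 and 2 for Krt42, with a median of 7 over all windows and quartiles of 3 and 20.

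Signals were scaled to a common 2%-trimmed mean, and a floor of 36.6, the 40th percentile of scaled signals, was set for dim probe sets. All 8 keratin probe sets were above this floor on all 4 arrays, so every fold given for the 5 keratins is measured on both sides. As deposited, both arrays of the Ring1B pair had a trimmed mean of 500.0, compared with 147 on the array labelled double KO and 160.4 on that labelled double KO control, so levels compared across the pairs rest on the scaling. For Actb, the ratio of the 3′ control probe set to the 5′ one lay between 1.16 and 1.26. Rnf2 was not lower on either knockout array than on its control by as much as 2-fold at its brightest probe set (2775 on the array labelled Ring1B KO, against 2579.7 on its control; 1986 on that labelled double KO, against 2182 on its control). Ring1 read 164 on the array labelled Ring1B KO, against 146 on its control, and 55.6 on that labelled double KO, against 44.7 on its control. The target signals therefore do not show which array carries which knockout, and each array goes by its label. With 1 array per group no difference has a replicate check and no p-value was computed. In RNA from whole cultures, fewer cells of a type and less RNA per cell cannot be told apart.

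The type II keratin Krt8 was read by 3 probe sets, all of which can match several transcripts. At the brightest (1420647_a_at) the scaled signal was 1121 on the array labelled Ring1B KO, 437 on its control, 489.9 on the array labelled double KO and 2293 on its control. The array labelled double KO control was thus the highest, that labelled Ring1B KO came next, and the other two lay 1.12-fold apart. Probe set 1423691_x_at read 837, 357, 306 and 1724 in the same order of arrays. The third, 1435989_x_at, read 975, 253, 222 and 1853. These 2 probe sets placed the array labelled double KO slightly below the Ring1B control array instead of above it, and otherwise kept the order.

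Krt18, the type I partner of Krt8, had signals of 1014 on the array labelled Ring1B KO, 539 on its control, 1309 on the array labelled double KO and 5523 on its control at its single probe set (1448169_at). Here the double KO control array stood 4.22-fold above the next, and the span from lowest to highest array was 10.3-fold, the widest of the 5 keratins at the probe sets used. Krt18 differed from Krt8 in that the array labelled double KO lay above the array labelled Ring1B KO, by 1.29-fold, whereas for Krt8 it lay 2.29-fold below.

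Krt7, the other type II member, read 75.3 on the array labelled Ring1B KO, against 73.6 on its control, and 205 on that labelled double KO, against 652 on its control (1423952_a_at). Both arrays of the Ring1B pair were near the floor, and both arrays of the double KO pair lay above them. Krt19, type I, read 134, 84.3, 115 and 603 in the same order of arrays (1417156_at), so that 3 arrays lay within 1.59-fold of each other and the double KO control array 4.51-fold above the next. For Krt42 the order was inverted. Its brighter probe set (1439765_x_at) can match several transcripts. It read 880.5 on the array labelled Ring1B KO, 1168 on its control, 1171 on the array labelled double KO and 525 on its control. The other, 1430208_at, read 350.4, 441, 657 and 306. The double KO control array was the lowest at both probe sets, and the whole span of the brighter was 2.23-fold.

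**Figure D1:**
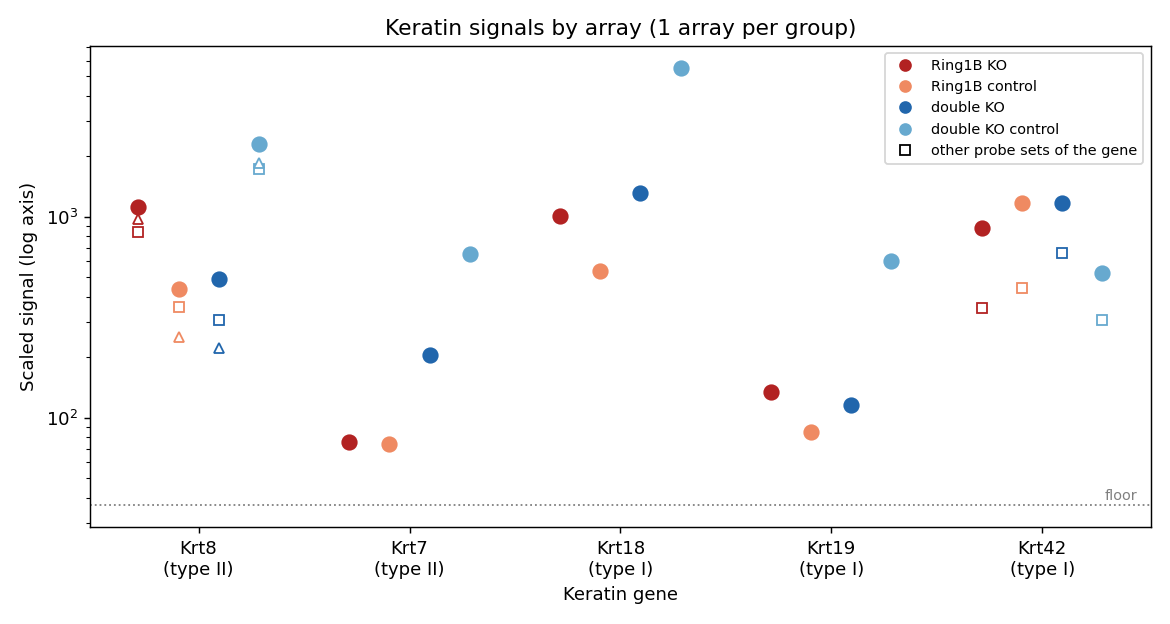
Scaled signal (log axis) of each keratin on the 4 arrays, named by their labels. Filled circles are the probe set used for the gene, open squares and triangles its other probe sets, and the dotted line is the floor of 36.6. The double KO control array is the highest for Krt8, Krt7, Krt18 and Krt19 and the lowest for Krt42.

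In the array labelled double KO, the 4 keratins of simple epithelia had lower signals than in its control, and Krt42 a higher one. Krt19 was 5.24-fold lower, Krt8 4.68-fold, Krt18 4.22-fold and Krt7 3.18-fold lower, or -2.39, -2.23, -2.08 and -1.67 on the log2 scale. Krt42 was 2.23-fold higher (log2 difference 1.16), and its other probe set gave 2.15-fold. The dimmer Krt8 probe sets gave larger differences than the brightest, 5.62-fold and 8.36-fold lower. Of the 12353 genes measured above the floor on either array, 9.99% were at least 2-fold lower, against 4 of the 5 keratins, and 3.02% at least 2-fold higher, against 1 of 5. Since this contrast was among the values known when the keratins were chosen, nothing is read from these shares. The median log2 difference was -2.08 over the 5 keratins and -0.05 over all genes. Of these genes 91 had a log2 difference as low as that of Krt19 or lower, 124 as low as Krt8, 167 as low as Krt18 and 365 as low as Krt7. With arrays scaled to a common median instead, the 1234 lower and 373 higher genes became 979 and 609 and the median of all genes moved to 0.12, and the 5 keratins kept their directions.

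The array labelled Ring1B KO differed less from its control, and in the other direction for most keratins. Krt8 was 2.57-fold higher (log2 difference 1.36), and its other probe sets gave 2.34-fold and 3.85-fold. Krt18 was 1.88-fold higher (0.91) and Krt19 1.59-fold higher (0.67), both short of 2-fold, while Krt7 differed by 0.031. Krt42 was 1.33-fold lower (-0.41), with -0.33 at its other probe set. At least 2-fold higher was thus 1 of the 5 keratins, Krt8, against 3.54% of 12343 genes, and none was at least 2-fold lower, against 2.61%. The median was 0.67 over the 5 keratins and -0.02 over all genes. Krt19 lay near the floor on these arrays, and a floor at the 60th percentile shrank its difference to 0.08.

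The control arrays, both labelled wild-type, differed from each other in Krt18, Krt7, Krt19 and Krt8 by more than either knockout array did from its own control, at the probe sets used. The 2 dimmer Krt8 probe sets, with 2.27 and 2.87 between the controls and -2.49 and -3.06 in the double KO comparison, were exceptions. The double KO control array was 10.3-fold higher than the Ring1B control array for Krt18, 8.85-fold for Krt7, 7.15-fold for Krt19 and 5.25-fold for Krt8, with log2 differences of 3.36, 3.15, 2.84 and 2.39. Krt42 was 2.23-fold lower there (-1.15), and -0.53 at its other probe set. These values depend on scaling the pairs to a common mean. With the values as deposited the log2 differences of Krt18, Krt7, Krt19 and Krt8 were 1.72, 1.51, 1.20 and 0.75, while the median of all genes stood at -1.32 in place of 0.13. Of 12645 genes 12.2% were at least 2-fold higher, against 4 of the 5 keratins, and 8.15% at least 2-fold lower, against 1 of 5. Scaling to a common median turned the 1542 higher and 1031 lower genes into 2060 and 761. Among all genes, 15 differed upward by as much as Krt18 or more, and 25 by as much as Krt7 or more.

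Each knockout array was also set against the control array that does not belong to it, in comparisons that share arrays with those above. The array labelled double KO differed from the Ring1B control array by 1.48 for Krt7 and 1.28 for Krt18, but by 0.45 for Krt19, 0.17 for Krt8 and 0.00355 for Krt42 (log2). The other Krt42 probe set gave 0.57. At least 2-fold higher were 2 of the 5, against 7.82% of genes, and none was 2-fold lower, against 9.87%. Against that control, the array labelled double KO had a lower signal for no keratin at the probe set used, while the dimmer Krt8 probe sets were slightly lower. The array labelled Ring1B KO differed from the double KO control array by -3.11 for Krt7, -2.44 for Krt18, -2.17 for Krt19 and -1.03 for Krt8, and by 0.75 for Krt42 (0.20 at its other probe set). At least 2-fold lower were 4 of the 5, against 11.1% of genes, and none was 2-fold higher, against 7.98%. Both comparisons cross the pairs and so rest on the scaling. With the values as deposited the array labelled double KO was below the Ring1B control array for all 5 keratins, with -0.29 for Krt7, -0.49 for Krt18, -1.32 for Krt19, -1.60 for Krt8 and -1.76 for Krt42. Likewise Krt8 turned to 0.61 on the array labelled Ring1B KO compared with the double KO control array. Against the Ring1B control array, Krt8 also turned to -0.083 when its probe sets were averaged and Krt42 to -0.065 under quantile normalization.

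**Figure D2:**
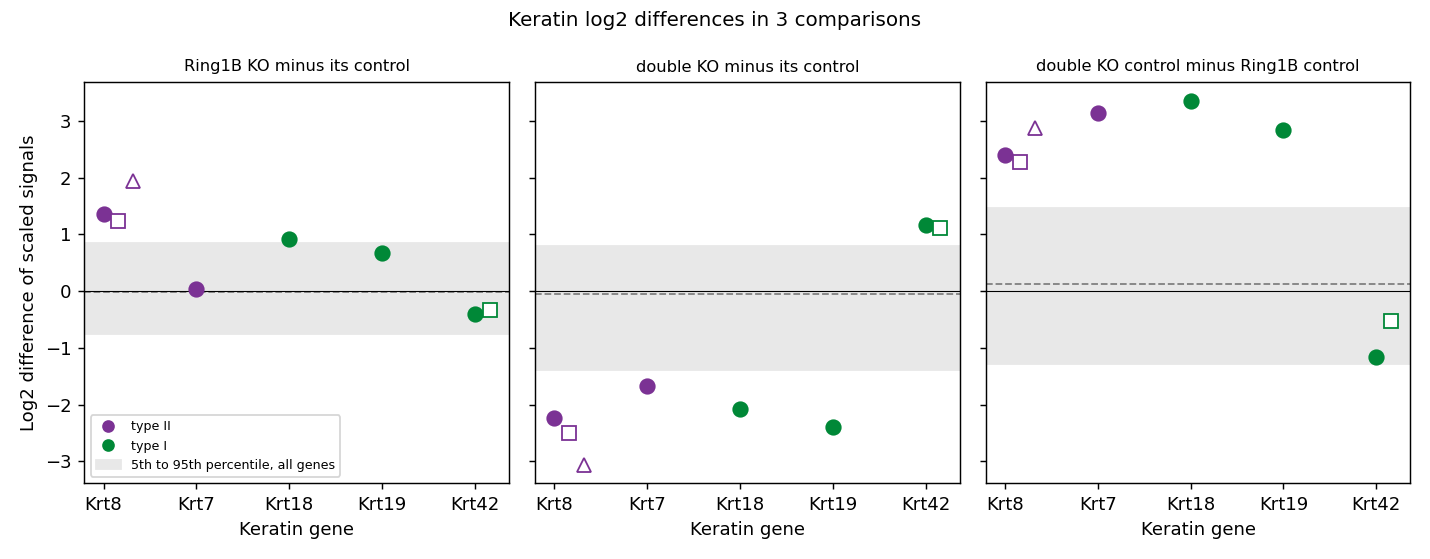
Log2 difference of scaled signals of each keratin in the 3 comparisons, with type II keratins in purple and type I in green. Filled circles are the probe set used for the gene, open symbols its other probe sets, the grey band the 5th to 95th percentile of all genes and the dashed line their median. In the double KO panel Krt8, Krt7, Krt18 and Krt19 lie between -2.39 and -1.67 and Krt42 at 1.16.

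Type I and type II partners were compared by their log2 differences, since signals of different probe sets are not on 1 scale. In the double KO comparison Krt18 and Krt8 differed by nearly the same amount, -2.08 for Krt18 and -2.23 for Krt8, a gap of 0.15, type I minus type II. With the other Krt8 probe sets the gap was 0.42 and 0.99, so it depended on the probe set. In the Ring1B comparison the gap was -0.45 (0.91 for Krt18, 1.36 for Krt8), and -0.32 and -1.03 with the other probe sets. Between the control arrays Krt18 exceeded Krt8 by 0.97 (3.36 and 2.39), or by 1.09 and 0.49 with the other probe sets. The partners shared their direction in these 3 comparisons, with gaps below 2-fold at the probe sets used. These comparisons are not independent, as that between the controls reuses the control array of each knockout comparison. The double KO control array was the highest for both partners. Across the pairs the gap was larger, 2.66-fold (-1.41) for the array labelled Ring1B KO against the double KO control array and 2.17-fold (1.12) for that labelled double KO against the Ring1B control array. In the last of these the dimmer Krt8 probe sets (-0.22 and -0.19) went opposite to Krt18 (1.28).

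Krt19 minus Krt7 was -0.72 in the double KO comparison, 0.63 in the Ring1B comparison, where Krt7 hardly differed, and -0.31 between the controls. Over the 4 arrays, the distance between profiles of log2 signals, each centred on its own mean, was 0.62 for the type I keratins Krt18 and Krt19, 0.81 for Krt18 and Krt7, 0.87 for Krt19 and Krt8, 1.20 for Krt19 and Krt7, 1.31 for the classical partners Krt18 and Krt8 and 1.98 for the type II keratins Krt7 and Krt8. Krt18 had 8 genes as near as Krt19 or nearer among 10026 genes above the floor on all arrays, Krt19 included, and 580 genes were as near to Krt8 as Krt18. Krt42 stood apart from the other keratins at distances from 2.87 to 3.35. With 4 points per gene, from arrays that fall into pairs, these distances are a description.

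**Figure D3:**
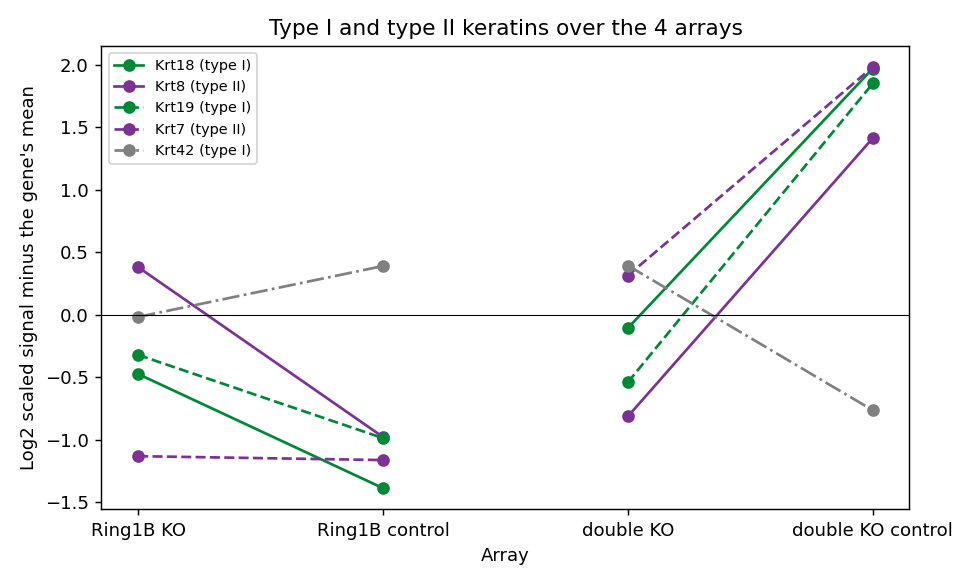
Log2 scaled signal of each keratin minus its own mean over the 4 arrays, by array, with lines joining each knockout array to its own control. Krt18 and Krt19 run close together, Krt8 is higher than Krt7 on the array labelled Ring1B KO and lower on that labelled double KO, and Krt42 runs the other way.

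The genes with profiles nearest to each keratin were found by the same distance. Nearest to Krt8 were Plbd1 (distance 0.28), the adenylate kinase gene Ak4 (0.31) and Boll (0.32), an RNA-binding protein gene of male germ cells. Nearest to Krt18 were Hsf5 (0.30), the matrix metalloproteinase gene Mmp9 (0.38) and Syce3 (0.42), a component of the synaptonemal complex. Syce3 was also nearest to Krt19 (0.28), followed by the antigen peptide transporter gene Tap1 (0.34) and Galnt12 (0.36), which encodes an enzyme of O-glycosylation. Krt7 was nearest to Mmp3 (0.31), Tuft1 (0.44) and Tapbp (0.44), the gene of tapasin. Nearest to Krt42 were Bicral (0.0113), Tdgf1 (0.11) and Mterf1a (0.14). Tdgf1, the Nodal co-receptor Cripto and a marker of undifferentiated ES cells, read 6219.7 on the array labelled Ring1B KO, 8516 on its control, 7774 on the array labelled double KO and 3814 on its control.

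Other keratins were mostly dim. Of 41 further keratin genes on the array, 30 were at the floor on all 4 arrays, among them Krt14, a keratin of the basal epidermis named after its values were seen. Of the 20 further type II genes, 6 were above the floor on any array. In the double KO comparison 3 could be compared, 1 of them with an array at the floor, with a median of -0.41, and Krt79 read 40.9 on the array labelled double KO and 73.1 on its control (-0.84) and Krt81 66.2 and 42.1 (0.65). The Ring1B comparison measured 5, but 4 of these had an array at the floor, so that their median of 0.34 is one of bounds, and Krt5, the type II partner of Krt14, read 49.5 on the array labelled Ring1B KO but was at the floor on its control. Between the controls 3 could be compared, 2 of them with an array at the floor, and Krt81 was 2-fold lower (-1.34), with a median of 0.41 that turned to -0.35 with the values as deposited.

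Among 21 further type I genes, 5 were above the floor on any array, and those that could be compared included 1 to 3 bounds in each comparison. Their medians were -0.08 in the double KO comparison, -0.19 in the Ring1B comparison and -0.05 between the controls. With scaling to a common median the first of these turned to 0.10 and the last to 0.16, and with a floor at the 60th percentile the Ring1B median turned to 0.25 and that between the controls to 0.89. Krt10, a keratin of differentiating epidermis, read 165 on the array labelled Ring1B KO, 138 on its control, 240.4 on the array labelled double KO and 257 on its control. Krt17, to which Krt42 is related, read 82.1 on the array labelled Ring1B KO, 100.02 on its control, 137 on the array labelled double KO and 96.9 on its control, with a difference of 0.50 in the double KO comparison. Krt32 and Krt16 were near the floor, and Krt32 differed by -0.24 in the Ring1B comparison.

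Of the 14 desmosome and keratin linker genes, whose products anchor keratin filaments, 7 were lower by 2-fold or more on the array labelled double KO and 7 were within 2-fold of its control. Over all genes 9.99% were lower by as much in this comparison. The median of the 14 was -1.01. Dsp, which encodes desmoplakin, the protein that ties keratin filaments to desmosomes, read 45.4 on the array labelled double KO and 313 on its control (-2.78). The plakin genes Evpl and Ppl read 54.3 and 45.3 there, against 172 and 127 on its control (-1.66 and -1.49), while 3 were higher, Dst (0.46), the plakophilin gene Pkp4 (0.30) and Pkp2 (0.05). None of the 13 measured in the Ring1B comparison was 2-fold apart, from 0.72 for Ppl and 0.64 for Evpl to -0.71 for Dst. With only 3.54% of all genes higher and 2.61% lower by as much there, nothing is read from this count. The median was -0.025, which turned to 0.026 with scaling to a common median. Between the controls 5 of 14 were higher by 2-fold or more on the double KO control array, against 12.2% of all genes. The median there was 0.56, or -0.92 with the values as deposited. Ppl (1.49) and Eppk1 (1.33) differed most, and both turned with the values as deposited.

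Other intermediate filament genes took no common direction. Of 7 measured in the double KO comparison, Des (-1.28) and the lamin gene Lmna (-1.12) were lower by 2-fold or more and none was higher. The share of all genes lower by as much was 9.99%. The median of -0.027 over the 7 turned to 0.08 under quantile normalization and to 0.17 with scaling to a common median. Vim, which encodes vimentin, the filament protein of mesenchymal cells, read 7500.05 on the array labelled Ring1B KO, 5609.8 on its control, 1246 on the array labelled double KO and 1428 on its control. It was thus far lower in the double KO pair, by -1.97 between the controls, where Krt18 was higher by 3.36. Synm (-1.05) was the only 1 of 8 that reached 2-fold in the Ring1B comparison, where the median was -0.20. Of all genes 2.61% were lower and 3.54% higher by as much there. The double KO control array was lower by 2-fold or more than the Ring1B control array for 2 of 8, Vim and Synm. Of all genes 8.15% were lower by as much. The median of the 8 was -0.28, which turned to 0.59 with a floor at the 60th percentile and to 0.058 with the mean over probe sets.

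**Figure D4:**
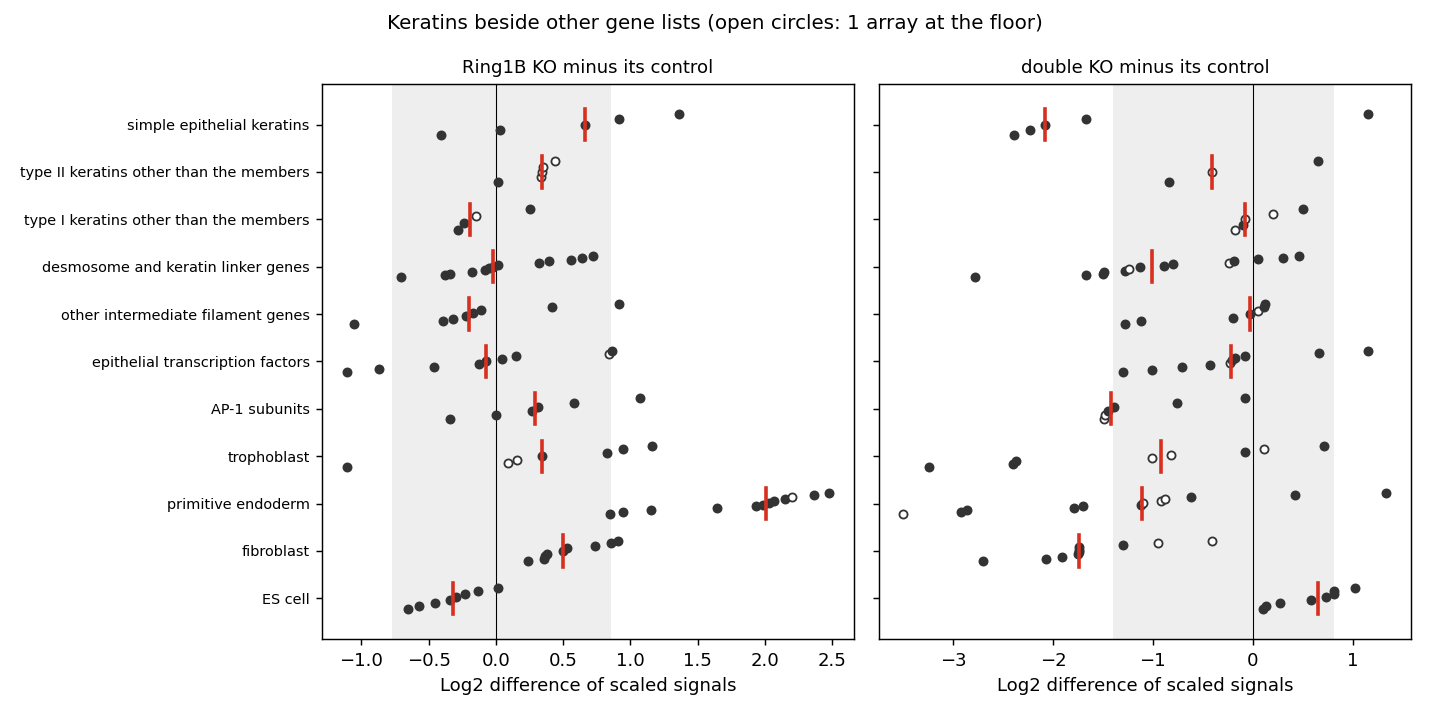
Log2 difference of each member of the 11 gene lists above the floor on at least 1 array, in the Ring1B comparison (left) and the double KO comparison (right). Red bars are medians, open circles have 1 array at the floor and are bounds, and grey bands span the 5th to 95th percentile of all genes. The row of simple epithelial keratins holds all 5 keratins, Krt42 included, and has medians of 0.67 and -2.08.

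Marker genes of other cell types that ES cultures can hold were read on the same arrays. The counts at least 2-fold apart in these 4 marker lists stand beside the following shares of all genes. In the double KO comparison 9.99% were lower and 3.02% higher. The Ring1B comparison had 3.54% higher and 2.61% lower, and that between the controls 12.2% higher and 8.15% lower. Trophoblast genes had a summed signal of 1416 on the array labelled Ring1B KO, 1869.9 on its control, 796 on the array labelled double KO and 1848 on its control. Much of the Ring1B pair's sum was Tfap2c, with 692 on the array labelled Ring1B KO, against 1496 on its control. Without it the sums were 724 on the array labelled Ring1B KO, 374 on its control, 499 on the array labelled double KO and 1536 on its control. Tfap2c was left out with its values known, as the 1 gene of the 7 measured that was lower on the array labelled Ring1B KO. Leaving it out turned the sum of that array from below its control to above it. Of 8 measured in the double KO comparison 4 were lower by 2-fold or more and none was higher by as much, and the median was -0.91. Gata3, a trophoblast transcription factor gene, read 39.2 there against 370.5 on the control (-3.24) and Esx1 80.5 against 426 (-2.40), but Elf5, a defining gene of trophoblast stem cells, was at the floor on all 4 arrays. Higher at any size were 2 of the 8, Ascl2 (0.72) and Tpbpa (0.11, a bound). Of 7 measured in the Ring1B comparison 1 was 2-fold higher (Esx1, 1.16) and 1 lower (Tfap2c, -1.11). Taken at any size 6 of the 7 were higher, and the median was 0.34. Between the controls 4 of 7 were higher by 2-fold or more on the double KO control array and 1 lower, and the median was 1.01, including Gata3 (at least 10.1-fold) and Eomes (2.41).

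Primitive endoderm, an extraembryonic epithelium that also makes Krt8 and Krt18, was followed by 12 marker genes. Their summed signal was 26505 on the array labelled Ring1B KO, 9693 on its control, 7195 on the array labelled double KO and 14634 on its control. Such a sum weighs the brightest genes most, and Sparc alone read 5903, 2653, 3531 and 7640 in the same order of arrays. On the array labelled Ring1B KO 10 of 12 were higher by 2-fold or more, against 3.54% of all genes. The median was 2.01, and the transcription factor genes Sox7 (2.48) and Sox17 (2.37) differed most. On the array labelled double KO 7 were lower by 2-fold or more, against 9.99% of all genes, and 1 higher, against 3.02%. The median was -1.11, and Gata6 (at least 11.3-fold lower) and Col4a1 (-2.92) differed most, while Lama1 was higher (1.34). Gata6, Sox7, Sox17 and Foxa2 were at the floor on the array labelled double KO. Between the controls the median was 0.026 and turned to -1.61 with the values as deposited. At least 2-fold higher was 1 of 12 (Sparc, 1.53), against 12.2% of all genes, and 1 was lower (Lama1, -2.09), against 8.15%.

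Fibroblast markers, of a possible feeder layer, had a summed signal of 5423 on the array labelled Ring1B KO, 3754 on its control, 887 on the array labelled double KO and 3098 on its control. On the array labelled double KO 8 of 10 were lower by 2-fold or more, against 9.99% of all genes. The median was -1.74, and Timp3 (-2.70) and Postn (-2.07) differed most. None of the 9 measured in the Ring1B pair was 2-fold apart, and the median was 0.50. Between the controls 1 was higher (Dcn, 2.18) and 1 lower (Col3a1, -1.14), and the median of -0.16 turned to 0.00831 with scaling to a common median. Markers of undifferentiated ES cells had summed signals of 43664 on the array labelled Ring1B KO, 53957 on its control, 57413 on the array labelled double KO and 42317 on its control. Their medians were -0.32, 0.66 and -0.69 in the Ring1B, double KO and control comparisons, and the count at least 2-fold apart was 0 of 8, 1 of 8 (Tdgf1, 1.03) and 3 of 8 (Sox2, Tdgf1 and Zfp42, all lower on the double KO control array). Krt42 had the direction of these medians in each comparison. The part of any of these cell types in the keratin differences was not tested.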

How the data were processed

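The authors deposited 1 signal intensity per probe set, on a linear scale. MAS5 is the tool named for it, per the submitters' processing notes; its version and settings are not given in the sources used here. RNA was extracted with Trizol and labelled with biotin after 1-cycle amplification, per the labels' protocols. No detection call was used, saturation was not assessed, and 2 signals were listed as 0. By their labels the arrays form 4 groups, each of 1 array, and this number limits the precision.

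Each array was multiplied by 0.554 (both arrays of the Ring1B pair), 1.89 (double KO) or 1.73 (double KO control) to bring its 2%-trimmed mean to 277, floored at 36.6 and log2-transformed (Python 3.11.15, numpy 2.4.6, pandas 2.3.3). Genes were named from the platform annotation (34958 probe sets with 1 symbol, 932 with several, 9211 with none), and the probe set with the highest mean log2 signal stood for a gene. Manufacturer's control probe sets were not named as genes. A log2 difference is the array named first minus the second, and differences of at least 2-fold were counted. A gene at the floor on 1 of 2 arrays has a bound. No test across arrays was possible. The steps were run on simulated data built from the Ring1B control array with small added noise. Such data lack the wide differences between the real pairs, so they do not check the scaling across the pairs.

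The 5 keratins, the 6 other gene lists and the 4 marker lists were chosen with earlier results of these data known. Tfap2c stands in 2 lists. Genes outside the 5 were named by rule: Ring1 and Rnf2, the 3 nearest profiles per keratin (predicted genes with clone-type symbols left out), and, in each comparison, the 2 listed genes that differed most in either direction from every list. Not every gene given by the rule is printed. Krt14, Elf5 and Foxa2 were named outside the rule, with their values known. Motifs were counted on both strands of promoter windows. Alternatives were no scaling, quantile normalization, a common median, floors at the 20th and 60th percentile, the mean over a gene's probe sets, and leaving out probe sets ending in _a_at, _s_at or _x_at.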

Additional observations from a re-analysis of the deposited data

Results flagged for a closer look

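The 5 keratins went in opposite directions in the 2 knockout comparisons, each knockout array against its own control, and this difference between the comparisons was not tested, with 1 array per group. The log2 difference in the Ring1B comparison minus that in the double KO comparison was 3.59 for Krt8 (1.36 and -2.23), 3.06 for Krt19 (0.67 and -2.39), 2.99 for Krt18 (0.91 and -2.08) and 1.70 for Krt7 (0.031 and -1.67). For Krt42 it was -1.57 (-0.41 and 1.16). The Krt7 value in the Ring1B comparison was close to 0, so its direction there carries little.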

How the results depend on the processing

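No paired analysis was possible because each group held 1 array. A value was counted as moved when it differed by more than 1.5-fold from that reported, a tolerance set in place of a replicate spread. Each keratin kept the sign of its log2 difference in the Ring1B, double KO and control comparisons under each of the 7 alternatives that gave it a value, and Krt8 and Krt7 have none without the probe sets that can match several transcripts. For that reason, leaving those probe sets out gave 0 keratins at least 2-fold higher in the Ring1B comparison, 2 lower in the double KO comparison, and 2 higher between the controls. The count of 1 lower between the controls, Krt42, became 0 with scaling to a common median, with the mean over probe sets and without those probe sets. With the values as deposited the keratin median between the controls was 1.20. Across the pairs the values as deposited turned Krt8 to 0.61 (Ring1B KO against the double KO control) and Krt7 to -0.29 and Krt18 to -0.49 (double KO against the Ring1B control). The other 74 values of the keratin counts, medians and Krt18 to Krt8 gaps in the 3 comparisons did not move. Among named genes, with the values as deposited the difference between the controls turned to -0.37 for Dst, -0.31 for Eppk1, -0.43 for Evpl, -0.11 for Grhl1, -0.44 for Jun, -0.14 for Klf5, -0.15 for Ppl and -0.11 for Sparc. Boll turned to -0.030 in the Ring1B comparison without the probe sets that can match several transcripts. Counts over all genes moved with the floor and the scaling, from 168 to 880 higher (437 reported) and 152 to 762 lower (322) in the Ring1B comparison, 218 to 928 higher (373) and 530 to 2172 lower (1234) in the double KO comparison, and 96 to 2282 higher (1542) and 638 to 8887 lower (1031) between the controls. Signals near the floor, as of Krt7 and Krt19 in the Ring1B pair, limit what these arrays show.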

Other observations

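Of 10 transcription factor genes active in epithelia that were measured in the double KO comparison, 8 were lower at any size and 2 higher. At the 2-fold threshold 2 of 10 were lower, Tfap2a (-1.30) and Grhl1 (-1.01), against 9.99% of all genes. Higher by as much was 1, against 3.02%, and the median of the 10 was -0.22. Grhl2, a regulator of epithelial junction genes, was the higher one and read 1430.3 on the array labelled double KO and 645 on its control (1.15), and Klf5 differed by 0.66. The Ring1B comparison had none of 9 at least 2-fold higher, against 3.54% of all genes, and 1 lower (Tfap2c, -1.11), against 2.61%. There Elf3 differed by 0.86, and the median of the 9 was -0.07, which turned to 0.05 with the mean over probe sets. Between the controls 9 of 10 were higher on the double KO control array at any size, 4 of them at least 2-fold, against 12.2% of all genes. Lower was 1, and the median of 0.95 over the 10 turned to -0.59 with the values as deposited.

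AP-1 subunit genes, whose products bind the motif searched for in the promoters, were mostly dimmer on the array labelled double KO. Compared with its control, 4 of 6 were lower by 2-fold or more, against 9.99% of all genes, and the median of the 6 was -1.42. That median moved to -0.77 with the values as deposited and to -0.78 with the mean over probe sets. Fos read 234 and 638 (-1.44) and Jun 222 and 579 (-1.39), while Fosl1 and Fosl2 were at the floor on the array labelled double KO (at least 2.79-fold and 2.80-fold lower). Of 6 measured in the Ring1B comparison 1 was at least 2-fold higher (Fosl2, 1.07), against 3.54% of all genes. The median of the 6 was 0.29. Between the controls 2 of 6 were at least 2-fold higher (Fos, 2.64, and Jun, 1.20), against 12.2% of all genes. The median of 0.31 over the 6 turned to -1.33 with the values as deposited.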
